A study of Mus musculus with 9 samples.

Results

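The BCL2 family of mitochondrial apoptosis was described here through 10 genes chosen by name, of 55416 genes counted. They were Bcl2, Bcl2l1 and Mcl1, whose proteins keep cells alive, Bax and Bak1, whose proteins open the mitochondrial outer membrane, and Bid, Bad, Bcl2l11, Bbc3 and Pmaip1, whose proteins carry a BH3 domain alone. Counts were seen for 9 of the 10, all of which passed the filter on low counts, and Pmaip1 had no count in any library. RNA came from 4T1 cells, a mammary carcinoma line of BALB/c mice, in 9 libraries of 3 groups. MRC+L cells (n = 3) were given MRC nanoparticles in DMEM for 12 hours and then light of 660 nm for 3 minutes. MRC cells (n = 3) were given the same nanoparticles for the same time without light. PBS cells (n = 3), called untreated in another label, had the medium alone for 12 hours. All 3 groups were the same cultured line. The labels do not spell out MRC or say that replicates were separate cultures, so the p-values here speak only for the variation among these 9 libraries. The series title names photodynamic particles and pyroptosis, a lytic form of cell death, and the comparisons ask how the family stood after the particles and after light.

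Proteins of this family meet on the outer membrane of the mitochondrion. The survival proteins hold the effectors Bax and Bak in check, and the BH3-only proteins, produced or activated by different kinds of stress, bind the survival proteins or the effectors. Once the effectors form pores, cytochrome c leaves the mitochondrion and caspases are activated, and much of this control acts on protein rather than on RNA.

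In cells with particles, alone or with light, the RNA of all 3 survival genes was lower than in PBS cells, and so was that of the BH3-only genes Bid, Bad and Bcl2l11. Bcl2l1, which encodes Bcl-xL, was the only member called different between MRC+L and MRC cells. Bax and Bbc3 were not called in either comparison with PBS with all 9 libraries as deposited. Both were called higher when PBS replicate 2 was left out, and also when a trend on gene length was removed from every library. That trend was largest in PBS replicate 2, so these settings are not independent of each other. Neither gene was called when PBS replicate 1 or 3 was left out instead.

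The promoters of the survival genes are shown because all 3 genes were called lower in both comparisons with PBS and because their start regions are unlike each other. RefSeq gave 15 start sites for 9 members on GRCm38.p6, each as 300 bases of which 250 lie before the start. In the 5′ to 3′ direction of the gene, they read as follows, with capitals for the single match described after them.
Bcl2, chr1:106714241-106714540, minus strand: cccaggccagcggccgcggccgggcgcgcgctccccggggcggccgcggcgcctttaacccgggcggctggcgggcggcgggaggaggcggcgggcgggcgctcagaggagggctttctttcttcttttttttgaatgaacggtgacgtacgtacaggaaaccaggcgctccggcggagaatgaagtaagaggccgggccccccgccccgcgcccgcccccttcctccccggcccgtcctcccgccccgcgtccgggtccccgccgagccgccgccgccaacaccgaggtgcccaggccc
Bcl2l1, chr2:152831679-152831978, minus strand: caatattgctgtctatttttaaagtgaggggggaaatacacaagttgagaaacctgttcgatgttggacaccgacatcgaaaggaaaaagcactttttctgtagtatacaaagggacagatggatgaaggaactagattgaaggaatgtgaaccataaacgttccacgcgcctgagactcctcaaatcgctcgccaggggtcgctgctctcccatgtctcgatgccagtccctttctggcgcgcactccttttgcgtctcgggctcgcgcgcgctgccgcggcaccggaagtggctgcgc
Bcl2l1, chr2:152828440-152828739, minus strand: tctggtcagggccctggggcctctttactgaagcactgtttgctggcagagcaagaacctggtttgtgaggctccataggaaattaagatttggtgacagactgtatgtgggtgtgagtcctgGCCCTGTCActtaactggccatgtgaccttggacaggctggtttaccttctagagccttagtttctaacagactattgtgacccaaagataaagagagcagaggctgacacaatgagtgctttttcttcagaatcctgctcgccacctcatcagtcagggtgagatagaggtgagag
Mcl1, chr3:95658471-95658770, plus strand: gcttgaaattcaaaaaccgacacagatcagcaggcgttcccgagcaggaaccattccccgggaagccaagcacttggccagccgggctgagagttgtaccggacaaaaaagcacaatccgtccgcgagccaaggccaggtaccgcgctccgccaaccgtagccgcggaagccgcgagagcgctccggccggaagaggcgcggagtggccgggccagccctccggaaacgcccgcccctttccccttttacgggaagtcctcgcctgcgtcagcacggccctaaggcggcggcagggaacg
The Bcl2 promoter was 76% G and C with 44 CpG dinucleotides, and the Mcl1 promoter was 65.7% G and C with 33. Both stood above the median of 32851 mouse promoters, 52.7% and 7 CpG. The farthest upstream of the 3 Bcl2l1 start sites had 52.3% and 22 CpG, and the farthest downstream had 49.3% and 1. The counts were summed by gene, so the start site in use was not measured.

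Motifs of stress-response factors were searched as letters on both strands in these windows. The antioxidant response core TGACNNNGC was found at 1 start site of the family, in the second Bcl2l1 window on the opposite strand as GCCCTGTCA, at offset -127 from the start, and it lies in 12.4% of all mouse promoters. No family window held TGATGNAA, the CHOP and ATF4 composite (3.97% of all promoters), the full cAMP response element TGACGTCA (1.79%), the AP-1 site TGANTCA (7.81%) or the interferon-type repeat GAAANNGAA (8.56%). The CCAAT box was found at 4 of the 15 start sites, of Bcl2l11, Bbc3 and Bad, and in 37.4% of all promoters. A match is a run of letters and not a bound site, and the absence of a match concerns these windows alone.

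Library totals were 15019765 to 20044166 counts. A gene without a count in a library may thus still have had up to 0.150 to 0.200 CPM of the unscaled total. Apart from such limits, CPM here are counts scaled by TMM to the library's size. PBS replicate 2 stood apart: between the shortest and the longest decile of genes, its log2 level was tilted by 1.25, against -0.32 to 0.14 in the other 8 libraries. The common biological coefficient of variation was 0.0578 in MRC+L, 0.0808 in MRC and 0.281 in PBS libraries. Of keratins of the mammary epithelium, Krt8 (306.1 to 905 CPM), Krt18 (169.5 to 823 CPM) and Krt7 (69.5 to 143 CPM) were expressed, but Krt19 was 0.253 to 2.755 CPM. The defining marker Epcam was at most 0.311 CPM and had no count in 4 libraries. Cdh1 was 1.95 to 5.17 CPM and Cldn4 0.157 to 1.01 CPM. Summed over 7 epithelial markers, the level was 559.8 to 571 CPM in MRC+L, 633 to 666 CPM in MRC and 1056 to 1878 CPM in PBS cells. This sum, most of it Krt8 and Krt18, moved with the family, and its part in the results was not tested. All 6 leukocyte markers stayed under 1 CPM, with Cd3e and Adgre1 at 0 in all 9 libraries. Of the 5 fibroblast markers, Pdgfra reached 29.6 to 85.25 CPM, Pdgfrb 4.37 to 19.8 CPM and Col1a1 0.595 to 1.83 CPM. Dcn and Thy1 were at most 0.0633 CPM. The endothelial markers summed to 3.35 to 7.42 CPM, most of it Cdh5. In a bulk library, fewer transcripts in every cell and fewer cells holding them cannot be told apart.

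Most tested members were lower in cells with particles than in PBS cells. In MRC+L against PBS, 7 of the 9 tested members were called lower and 0 higher at an adjusted p under 0.05 (edgeR quasi-likelihood test with Benjamini-Hochberg adjustment over 13439 genes), where 46.2% of all genes were called, 24.5% of all genes lower and 21.8% higher. In MRC against PBS, 6 of 9 were called lower and 0 higher, where 37.6% of all genes were called, 19.8% lower and 17.8% higher. The count of 0 higher was also found with DESeq2, and at an unadjusted p under 0.05 edgeR had 0 members higher in MRC+L and 1, Bbc3, in MRC. Of all 13439 genes, 7271 in MRC+L and 6393 in MRC had such a p in either direction. The median log2 fold change of the members was -0.52 in MRC+L and -0.43 in MRC, and that of all tested genes was -0.03 in each. Libraries of 7 members did not overlap between MRC+L and PBS, all lower in MRC+L, which held for 56.3% of all genes, 28.1% lower and 28.2% higher. Between MRC and PBS 8 did not overlap, 7 lower and 1 higher in MRC, against 48.3% of all genes, 24.2% lower and 24.1% higher. Both comparisons use the same 3 PBS libraries, so they are not independent of each other. Without PBS replicate 2, all 9 members were called in each comparison, 7 lower and 2 higher. The same fit called 55.7% of 13747 genes for MRC+L, 28.3% lower and 27.4% higher, and 50.6% for MRC, 26.0% lower and 24.7% higher.

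Bcl2l1, which encodes the survival protein Bcl-xL, lies at chr2:152622588-152673648 on the minus strand of GRCm39, the build of all gene positions here, and gave the clearest separation of the 3 groups. Its level was 41.0, 38.4 and 40.9 CPM in MRC+L, 54.8, 58.8 and 58.0 CPM in MRC, and 106, 113 and 104 CPM in PBS libraries. No library of a group overlapped with another group, and the spread within each group was small beside the steps between them. The means were 40.1 ± 1.47 CPM in MRC+L, 57.2 ± 2.14 CPM in MRC and 107.9 ± 4.83 CPM in PBS cells (SD, n = 3 each). Against PBS, the log2 fold change was -1.43 ± 0.09 (SE) in MRC+L, 2.69-fold lower with an adjusted p of 3.01e-06, and -0.92 ± 0.09 in MRC, 1.89-fold lower with an adjusted p of 5.02e-05.

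Bcl2, the founding survival gene (chr1:106465908-106642004, minus strand), varied more among PBS libraries than the other survival genes did. It had 9.885, 8.90 and 9.11 CPM in MRC+L, 8.99, 10.1 and 12.5 CPM in MRC, and 23.0, 15.2 and 28.4 CPM in PBS libraries. All 6 libraries with particles were below all 3 PBS libraries, of which replicate 2 was the lowest. The log2 fold change was -1.25 ± 0.22 in MRC+L (adjusted p = 0.00133, 2.38-fold lower) and -1.07 ± 0.22 in MRC (adjusted p = 0.00378).

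Mcl1 (chr3:95566099-95570487, plus strand) encodes a survival protein known for its short life in the cell. Its RNA stood at 140.4, 129 and 134 CPM in MRC+L, 152.5, 133 and 145.5 CPM in MRC, and 186, 208 and 185 CPM in PBS libraries. The groups with particles did not overlap with PBS, and they overlapped with each other. The fall was smaller than that of Bcl2l1 or Bcl2 in point estimate, with a log2 fold change of -0.52 ± 0.10 in MRC+L (adjusted p = 0.00216) and -0.43 ± 0.10 in MRC (adjusted p = 0.0078).

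Of the effectors, Bak1 was called lower in MRC+L, and Bax was called in neither comparison with PBS. Bax (chr7:45111121-45116322, minus strand), whose cytosolic protein moves to mitochondria when activated, had 50.1, 52.0 and 62.2 CPM in MRC+L, 57.1, 54.85 and 55.8 CPM in MRC, and 39.6, 65.6 and 33.5 CPM in PBS libraries. PBS replicate 2 was the highest of all 9 libraries and the other 2 PBS libraries were the lowest, so the groups overlapped. With all libraries the log2 fold change was 0.25 ± 0.21 in MRC+L (95% interval -0.23 to 0.72, adjusted p = 0.371) and 0.27 ± 0.21 in MRC (-0.20 to 0.75, adjusted p = 0.342). Without PBS replicate 2, which was left out after the data were seen, these became 0.58 (adjusted p = 9.81e-05) and 0.60 (adjusted p = 7.41e-05). Without PBS replicate 3 they were 0.06 (adjusted p = 0.811) and 0.09 (adjusted p = 0.718). Without PBS replicate 1 they were 0.14 (adjusted p = 0.668) and 0.17 (adjusted p = 0.623). Bax shares 12.2% of its exonic length with Gm45808 on the same strand, which had no count.

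Bak1 (chr17:27238784-27247983, minus strand), whose protein resides on the mitochondrial membrane, was lower in cells with particles. Its values were 45.7, 44.65 and 48.2 CPM in MRC+L, 51.5, 54.4 and 52.5 CPM in MRC, and 69.15, 72.6 and 54.6 CPM in PBS libraries. The ranges of the groups did not overlap, although PBS replicate 3 lay close to MRC replicate 2. In MRC+L the log2 fold change was -0.50 ± 0.12 (adjusted p = 0.00633), and in MRC it was -0.31 ± 0.12 with an interval of -0.57 to -0.05, which missed the threshold (adjusted p = 0.0615). That value in MRC passed with DESeq2 (adjusted p = 0.040), without PBS replicate 2 (-0.24, adjusted p = 0.0495) and without PBS replicate 3 (-0.43, adjusted p = 0.00634). Bak1 shares 25.5% of its exonic length with Ggnbp1 on the opposite strand, which had 1 to 34 counts.

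Among the BH3-only genes, Bid (chr6:120868891-120893814, minus strand) encodes a protein that caspase-8 cuts into its active form. It had 102, 107 and 99.4 CPM in MRC+L, 103, 107 and 97.8 CPM in MRC, and 136, 147 and 128 CPM in PBS libraries. The libraries with particles stood together, below all of PBS. The log2 fold change was -0.41 ± 0.10 in MRC+L (adjusted p = 0.00614) and -0.42 ± 0.10 in MRC (adjusted p = 0.00669). A limit is that Bid shares 17.7% of its exonic length with Bcl2l13 on the opposite strand, which was itself higher against PBS, by 0.50 in MRC+L (adjusted p = 0.0109) and 0.42 in MRC (adjusted p = 0.0271) on the log2 scale, and the counting used no strand option.

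Bad (chr19:6919229-6929267, plus strand) encodes a BH3-only protein that is held inactive by phosphorylation, and Bcl2l11 (chr2:127967958-128004467, plus strand) encodes Bim, a strong direct partner of all survival proteins. Bad had 13.1, 12.8 and 12.8 CPM in MRC+L, 12.0, 13.6 and 16.5 CPM in MRC, and 23.2, 35.6 and 16.9 CPM in PBS libraries. Bcl2l11 had 96.6, 98.1 and 102.5 CPM in MRC+L, 90.2, 107 and 97.7 CPM in MRC, and 159.9, 108 and 160.4 CPM in PBS libraries. In both genes every library with particles was below every PBS library, but PBS replicate 2 was the highest of its group for Bad and the lowest for Bcl2l11. The log2 fold changes of Bad were -0.97 ± 0.24 in MRC+L (adjusted p = 0.00844) and -0.85 ± 0.24 in MRC (adjusted p = 0.019), and those of Bcl2l11 were -0.53 ± 0.15 in MRC+L (adjusted p = 0.0169) and -0.54 ± 0.15 in MRC (adjusted p = 0.0188).

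The call of Bad in MRC and both calls of Bcl2l11 depended on single libraries, while that of Bad in MRC+L was kept in 9 of 9 omissions (adjusted p up to 0.033). In MRC, Bad missed the threshold without MRC replicate 1 (adjusted p = 0.0813) or MRC replicate 2 (0.0676), with log2 fold changes of -0.75 and -0.83. Without PBS replicate 2 it stayed called but was smaller, at -0.64 in MRC+L (adjusted p = 0.00111) and -0.52 in MRC (adjusted p = 0.00611). Bcl2l11 in MRC missed it when PBS replicate 1 (0.0736) was left out, as it did when MRC replicate 1 (0.0821) and MRC replicate 3 (0.0556) were. For Bcl2l11 in MRC+L, 3 omissions ended the call: that of PBS replicate 1 (adjusted p = 0.0648), that of MRC+L replicate 1 (0.059) and that of MRC+L replicate 2 (0.0584). The fit to the 6 libraries of MRC and PBS alone called neither Bad (0.0573) nor Bcl2l11 (0.061), and no omission turned a direction in the comparisons with PBS. Bad shares 20.5% of its exonic length with Gpr137 on the opposite strand, which had 72 to 207 counts.

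Bbc3 (chr7:16042318-16052130, plus strand) encodes Puma and is a textbook target of p53. It had 16.2, 16.5 and 17.75 CPM in MRC+L, 20.4, 20.7 and 18.2 CPM in MRC, and 15.04, 18.2 and 10.7 CPM in PBS libraries. MRC libraries lay above all PBS libraries, but MRC replicate 3 and PBS replicate 2 were nearly level, and MRC+L overlapped with PBS. The log2 fold change was 0.20 ± 0.18 in MRC+L (-0.19 to 0.59, adjusted p = 0.375) and 0.43 ± 0.18 in MRC (0.04 to 0.82, adjusted p = 0.0786), neither past the threshold. Without PBS replicate 2 both passed, at 0.38 (adjusted p = 0.0293) in MRC+L and 0.60 (adjusted p = 0.0013) in MRC. Without PBS replicate 3 neither did, at 0.02 (adjusted p = 0.925) in MRC+L and 0.25 (adjusted p = 0.165) in MRC. The same held without PBS replicate 1, at 0.22 (adjusted p = 0.442) in MRC+L and 0.45 (adjusted p = 0.143) in MRC.

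Pmaip1 (chr18:66591604-66598636, plus strand), which encodes Noxa, a partner of Mcl1, had 0 of 155845462 counts over the 9 libraries, which allows up to 0.0192 CPM over them together. No comparison could be made for it. All annotated genes from 63.85 kb before to 601 kb after it on chromosome 18 had 0 to 2 counts in total, among them the protein-coding Mc4r with 0. Outside this stretch, Ccbe1, 155.8 kb before Pmaip1, had 14995 counts, and Gnal, 622.7 kb after it, had 159. Of protein-coding genes farther on, Chmp1b had 3544 counts, Mppe1 2316, Impa2 5139 and Cidea 0. The cause was not tested. Genes without any count were common, at 5098 of 21877 protein-coding genes (23.3%).

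**Figure D1:**
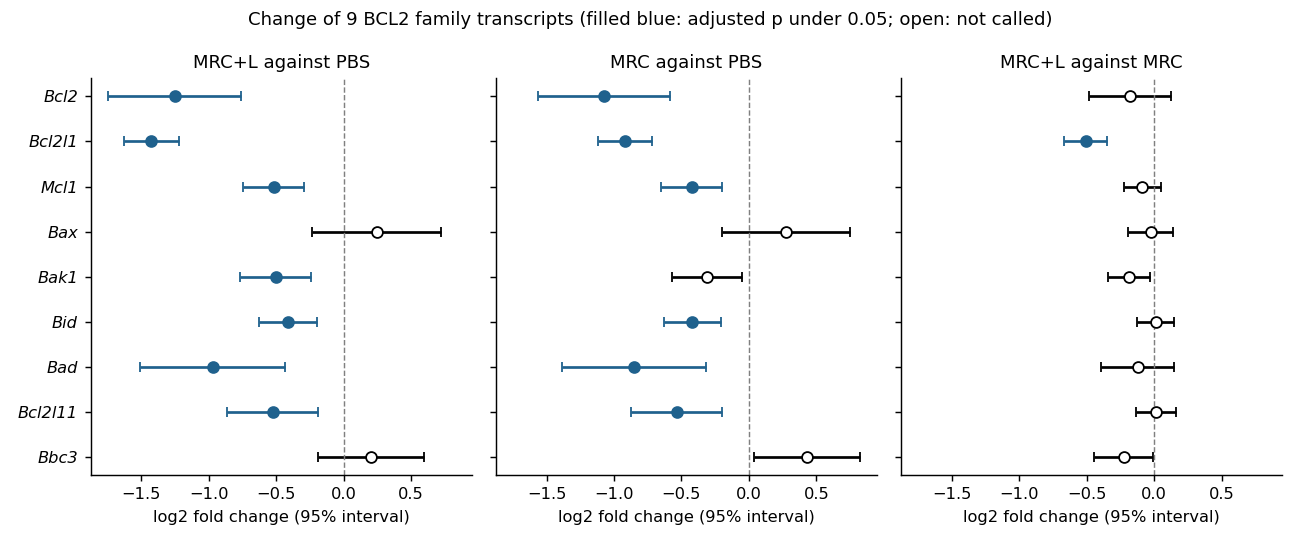
Log2 fold change of each tested member with its 95% interval in MRC+L against PBS, MRC against PBS and MRC+L against MRC, from the edgeR quasi-likelihood fit. Filled points passed an adjusted p under 0.05; all calls lie left of 0, and Bcl2l1 is the only filled point in MRC+L against MRC.

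No group had light without particles, so light alone cannot be told apart from light acting on the particles. Light in cells with particles was asked about directly by MRC+L against MRC, fitted to the 6 libraries of those groups because PBS libraries varied more. Of 9 tested members 1 was called, lower, where 5.05% of 12955 genes were called, 1.91% lower and 3.13% higher. That member was Bcl2l1, at -0.51 ± 0.08 on the log2 scale, 1.42-fold lower (interval -0.66 to -0.35, adjusted p = 0.000393), and lower in 3 of 3 MRC+L libraries than in any MRC library. It was called in this fit after leaving out any of the 6 libraries, but not in the fit to all 9 libraries, whose spread includes PBS (-0.51, adjusted p = 0.406), where 0 of 13439 genes were called by edgeR and 573 had an unadjusted p under 0.05. In the fit to 6 libraries, Bak1 (-0.19, adjusted p = 0.144) and Bbc3 (-0.23, interval -0.45 to -0.01, adjusted p = 0.226) did not overlap between the groups either, which held for 24.9% of all genes, 12.9% lower and 12.0% higher, but neither was called.

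For the other members the 95% interval of the difference with light included 0, which does not show that the groups were alike. Bax differed by -0.03 (-0.19 to 0.14), Bcl2l11 by 0.01 (-0.14 to 0.16) and Mcl1 by -0.09 (-0.23 to 0.05) on the log2 scale. The interval was wider for genes with fewer counts, Bcl2 at -0.18 (-0.48 to 0.13) and Bad at -0.12 (-0.39 to 0.15).

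Levels of different members were compared per kilobase of exon, as mean CPM per kilobase. Mcl1 was the highest member in each group, at 39.4 in MRC+L, 42.0 in MRC and 56.4 in PBS cells, and Bcl2 was the lowest with counts, at 1.02 in MRC+L, 1.15 in MRC and 2.42 in PBS cells. In MRC+L cells the order after Mcl1 was Bax 34.8, Bid 29.0, Bak1 19.2, Bcl2l11 12.3, Bcl2l1 8.75, Bbc3 7.92 and Bad 5.035, and only Mcl1 and Bax overlapped as neighbours. In MRC cells it was Bax 35.5, Bid 28.85, Bak1 21.9, Bcl2l1 12.5, Bcl2l11 12.3, Bbc3 9.30 and Bad 5.47, with overlap between Bcl2l1 and Bcl2l11 alone. PBS cells had Bid 38.6, Bax 29.3, Bak1 27.2 and Bcl2l1 23.5, all overlapping with their neighbours, then Bcl2l11 17.8, Bad 9.87 and Bbc3 6.89, likewise overlapping. Bcl2l1 was thus close to the effectors in PBS cells and below both of them in every MRC+L and MRC library.

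The ratio of Bax to Bcl2l1 per kilobase, on the log2 scale, gave that change library by library. It was 1.83, 1.98 and 2.15 in MRC+L, 1.60, 1.44 and 1.48 in MRC, and 0.12, 0.75 and -0.09 in PBS libraries. No groups overlapped, and PBS replicate 2 was the highest of PBS. The difference in means was 1.73 for MRC+L against PBS, 1.25 for MRC against PBS and 0.48 for MRC+L against MRC. Leaving out each library in turn gave 1.55 to 1.97, 1.08 to 1.50 and 0.40 to 0.55 for these differences. Since the ratio combines members whose tests are given above, it has no test of its own.

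Within the 3 survival genes among the members, the make-up shifted towards Mcl1. Mcl1 held 80.1% ± 0.321 of their summed level per kilobase in MRC+L, 75.5% ± 1.98 in MRC and 68.5% ± 1.12 in PBS cells (SD, n = 3 each). Bcl2l1 held 17.8% in MRC+L, 22.5% in MRC and 28.6% in PBS cells, while Bcl2 held at most 3.89% in any library. The log2 ratio of the summed effector and BH3-only level to the summed survival level was 1.14 ± 0.0969 in MRC+L, 1.03 ± 0.0940 in MRC and 0.65 ± 0.149 in PBS cells, with the libraries of PBS below all others. The ratio of Bcl2l11 to Mcl1 overlapped among all 3 groups, at -1.67 ± 0.0855 in MRC+L, -1.78 ± 0.228 in MRC and -1.69 ± 0.422 in PBS cells.

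**Figure D2:**
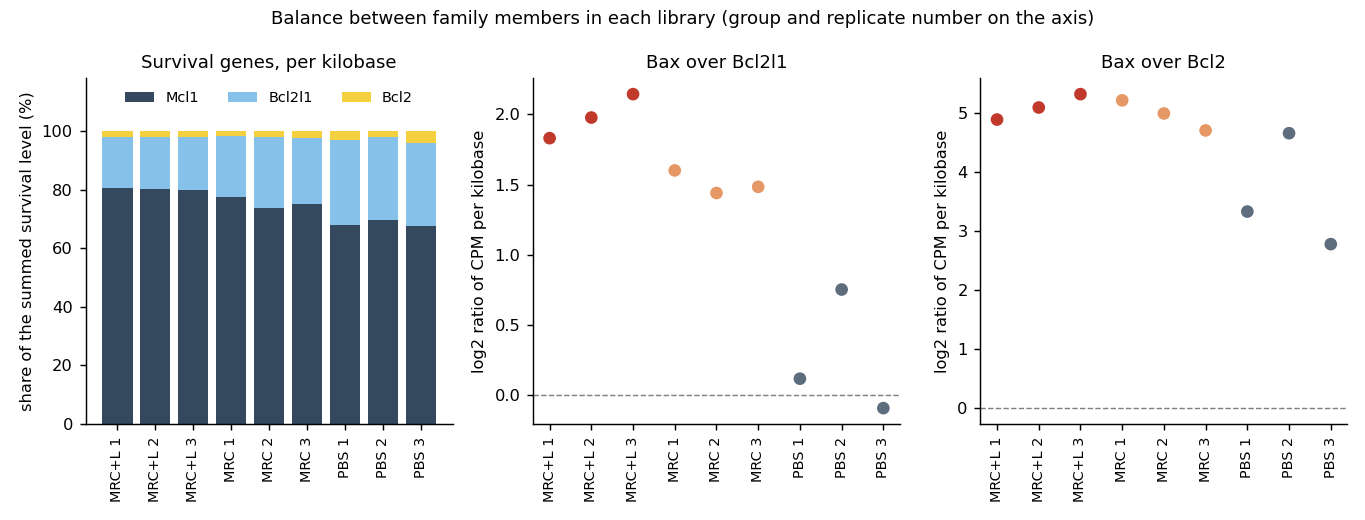
The share of Mcl1, Bcl2l1 and Bcl2 in their summed CPM per kilobase, and the log2 ratios of Bax to Bcl2l1 and of Bax to Bcl2 per kilobase, in each library. Bax over Bcl2l1 separates MRC+L (1.83 to 2.15), MRC (1.44 to 1.60) and PBS (-0.09 to 0.75), while for Bax over Bcl2 PBS replicate 2, at 4.65, lies just under the lowest library with particles, at 4.70.

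PBS replicate 2 differed from the other PBS libraries broadly along the exonic length of the members. Its log2 level over the mean of the other 2 PBS libraries was 0.84 for Bax, with 1576 bases of exon, 0.50 for Bbc3, with 2124, and 0.83 for Bad, with 2558. It was 0.11 for Bcl2l1, with 4586 bases, -0.57 for Bcl2l11, with 8029, and -0.76 for Bcl2, with 9157. Bak1, with 2407 bases, was at 0.23, Mcl1, with 3418, at 0.16 and Bid, with 3550, at 0.16. Short members were thus higher in this library and the longest, Bcl2l11 and Bcl2, lower. Length did not order all members, as Bad stood above the shorter Bak1 and Bbc3. With a smooth trend on gene length removed from each library, Bax was called higher at 0.57 (adjusted p = 0.00132) in MRC+L and 0.53 (adjusted p = 0.00258) in MRC, and Bbc3 at 0.43 (adjusted p = 0.0148) in MRC+L and 0.60 (adjusted p = 0.00254) in MRC.

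**Figure D3:**
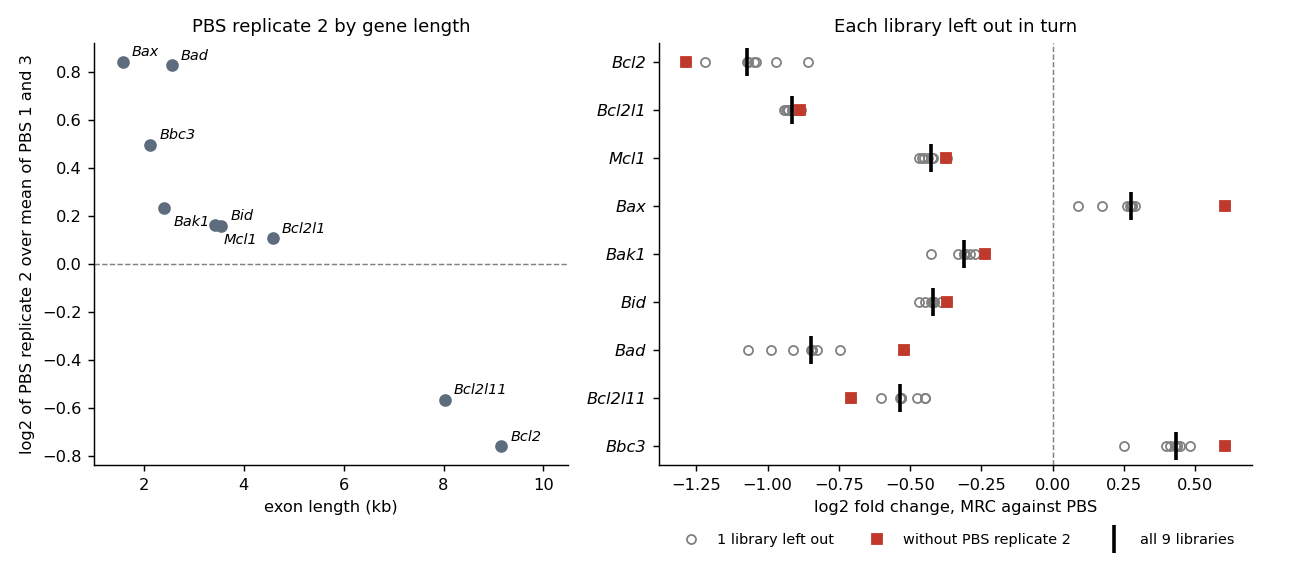
Left, the log2 level of PBS replicate 2 over the mean of PBS replicates 1 and 3 for each member against its exonic length in kilobases; right, the log2 fold change in MRC against PBS with all 9 libraries (bar), without PBS replicate 2 (square) and without each other library (circles). The short Bax lies at 0.84 and the long Bcl2 at -0.76 on the left, and leaving out this library puts Bax at 0.60.

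Of 15 other relatives of the family, 8 passed the filter. In MRC+L against PBS 2 rose and 4 fell, where 46.2% of all genes were called, 24.5% lower and 21.8% higher. In MRC against PBS 2 rose and 5 fell, where 37.6% were called, 19.8% lower and 17.8% higher. In MRC+L against MRC 1 rose and 0 fell, where 5.05% of all genes were called, 3.13% higher and 1.91% lower. The median log2 fold changes of the relatives were -0.33, -0.38 and 0.01, beside -0.03, -0.03 and -0.01 over all genes tested. The counts against PBS were the same without PBS replicate 2, with 9 relatives tested. That fit called 55.7% of all genes for MRC+L and 50.6% for MRC. At an unadjusted p under 0.05, edgeR had 1 relative higher and 2 lower with light, where 2715 of 12955 genes passed in either direction. DESeq2 called 0 relatives with light in either direction. Bok, an effector-like relative, averaged 31.95 ± 5.57 CPM in MRC+L, 38.8 ± 5.66 CPM in MRC and 86.1 ± 25.7 CPM in PBS cells, and fell in both comparisons with PBS (-1.43, adjusted p = 0.000542, and -1.15, adjusted p = 0.00232). Bmf, a BH3-only gene linked to loss of anchorage, fell by 1.33 in MRC+L (adjusted p = 0.0039) and by 0.95 in MRC (adjusted p = 0.0224), the second of which was lost when PBS replicate 1, or either of MRC replicates 1 and 3, was left out (adjusted p up to 0.087). Bcl2l12 fell by 0.82 in MRC+L (adjusted p = 0.00397) and had -0.40 in MRC (adjusted p = 0.0917).

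Bcl2l15 rose by 2.98 in MRC+L (adjusted p = 0.00236) and 2.75 in MRC (adjusted p = 0.00489), but from 1 to 19 counts a library, so its size is uncertain. Bnip3, a mitophagy receptor induced by low oxygen, was the relative that rose with light, at 129 ± 23.4 CPM in MRC+L, 87.75 ± 15.7 CPM in MRC and 132 ± 17.4 CPM in PBS cells. Its log2 fold change was 0.56 in MRC+L against MRC (adjusted p = 0.00395, called in 6 of 6 omissions but not by DESeq2, adjusted p = 0.0948), -0.03 in MRC+L against PBS (adjusted p = 0.889) and -0.59 in MRC against PBS (adjusted p = 0.0224). The last was lost when PBS replicate 1, or either of MRC replicates 2 and 3, was left out.

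Downstream of the family, 16 genes of mitochondrial release and caspase activation were tested. In MRC+L against PBS 0 rose and 8 fell, where 21.8% of all genes rose and 24.5% fell. In MRC against PBS 0 rose and 7 fell, where 17.8% and 19.8% of all genes did. In MRC+L against MRC 0 rose and 1 fell, where 3.13% and 1.91% of all genes did. Medians of the list were -0.45, -0.33 and -0.13 in the order of these comparisons. The count of 0 higher held with DESeq2 in all 3 comparisons, and edgeR had 0, 0 and 1 higher at an unadjusted p under 0.05. Genes with such a p in either direction were 7271 and 6393 of 13439 against PBS and 2715 of 12955 with light. Without PBS replicate 2, 0 rose and 9 fell in MRC+L, where 27.4% of all genes rose and 28.3% fell. That fit had 1 higher and 10 lower in MRC, where 24.7% of all genes rose and 26.0% fell. Casp9, the initiator that Apaf1 activates, fell by 0.97 in MRC+L (adjusted p = 0.000505) and by 0.83 in MRC (adjusted p = 0.00156) on the log2 scale. Casp8, the initiator of death receptors that also cuts Bid, fell by 0.94 in MRC+L (adjusted p = 0.000105) and by 0.90 in MRC (adjusted p = 0.000177).

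Casp6, an executioner caspase, averaged 10.2 ± 1.37 CPM in MRC+L, 14.9 ± 0.439 CPM in MRC and 27.0 ± 3.78 CPM in PBS cells. It fell by 1.40 in MRC+L (adjusted p = 5.3e-05) and by 0.86 in MRC (adjusted p = 0.00115), and it was the gene of this list that fell with light (-0.54, adjusted p = 0.0202), a call that ended when MRC replicate 3 or either of MRC+L replicates 2 and 3 was left out. Cycs, which encodes cytochrome c, and Apaf1, its partner in the apoptosome, overlapped between the groups with particles and PBS. Cycs had -0.13 in MRC+L (adjusted p = 0.6) and -0.02 in MRC (adjusted p = 0.943), and Apaf1 had 0.01 in MRC+L (adjusted p = 0.975) and -0.22 in MRC (adjusted p = 0.456). Both were chosen after their values were seen.

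Of transcription factors known to act on family genes, 12 were tested. In MRC+L against PBS 7 rose and 3 fell, where 21.8% of all genes rose and 24.5% fell. In MRC against PBS 7 rose and 1 fell, where 17.8% of all genes rose and 19.8% fell. In MRC+L against MRC 0 were called by edgeR or DESeq2, where edgeR called 5.05% of all genes. With edgeR 2 had an unadjusted p under 0.05, as had 2715 of 12955 genes. Medians of these factors were 0.50, 0.55 and 0.01. Without PBS replicate 2, 7 rose and 4 fell in each comparison with PBS, where 55.7% of all genes were called for MRC+L and 50.6% for MRC. Trp53 encodes p53, which is known to act on Bbc3 and Bax. Its RNA averaged 162 ± 8.73 CPM in MRC+L, 154.5 ± 1.15 CPM in MRC and 86.9 ± 12.8 CPM in PBS cells. The log2 fold changes of Trp53 were 0.90 in MRC+L (adjusted p = 0.000206) and 0.83 in MRC (adjusted p = 0.000439). Only RNA was counted, so whether p53 protein was present or active was not measured. Ddit3 encodes CHOP, a stress factor known to repress Bcl2 and raise Bcl2l11, and it rose by 1.80 in MRC+L (adjusted p = 0.000454) and 1.72 in MRC (adjusted p = 0.000729). Myc, which drives growth and is known to sensitise cells to apoptosis, rose by 1.295 in MRC+L (adjusted p = 1.47e-05) and 1.13 in MRC (adjusted p = 4.68e-05), and E2f1, which drives entry into S phase, fell by 0.96 in MRC+L (adjusted p = 6.16e-05) and by 0.85 in MRC (adjusted p = 0.000177).

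Protein partners and turnover factors of the family made the last list, with 14 tested. In MRC+L against PBS 1 rose and 4 fell, where 46.2% of all genes were called. In MRC against PBS 2 rose and 4 fell, where 37.6% of all genes were called. In MRC+L against MRC 2 rose and 0 fell, where 3.13% of all genes rose and 1.91% fell. Medians of the list were 0.20, 0.15 and 0.04 in the order of these comparisons. With PBS replicate 2 left out, 3 rose and 5 fell in MRC+L, where 55.7% of all genes were called. That fit had 2 higher and 5 lower in MRC, where 50.6% were called. The 0 lower with light held with DESeq2, and edgeR had 1 at an unadjusted p under 0.05, where 2715 of 12955 genes passed in either direction. In the fit to all 9 libraries no gene of the 4 lists was called with light, where 0 of 13439 genes were called. Akt1, the kinase that phosphorylates Bad, averaged 274 ± 24.6 CPM in MRC+L, 296 ± 15.7 CPM in MRC and 672 ± 62.4 CPM in PBS cells, and fell by 1.296 in MRC+L (adjusted p = 2.03e-05) and by 1.18 in MRC (adjusted p = 4.78e-05). Bag3, a co-chaperone that stabilises Mcl1 and Bcl-2 proteins, was called higher in all 3 comparisons, with 113 ± 2.40 CPM in MRC+L, 91.75 ± 5.37 CPM in MRC and 64.3 ± 2.85 CPM in PBS cells. Its log2 fold change was 0.81 in MRC+L (adjusted p = 8.67e-05) and 0.51 in MRC (adjusted p = 0.00174) against PBS, and 0.30 in MRC+L against MRC (adjusted p = 0.0111), the last of which was called in 3 of 6 omissions. It was lost when MRC replicate 3 or either of MRC+L replicates 2 and 3 was left out. Usp9x, a deubiquitinase of Mcl1, was the other gene of the list called with light, at 0.26 (adjusted p = 0.0335), which held only when MRC replicate 2 was the library left out.

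Ywhae, a 14-3-3 protein that retains phosphorylated Bad in the cytosol, fell by 0.47 in MRC+L (adjusted p = 0.0113) and by 0.35 in MRC (adjusted p = 0.0491). Bag1, a chaperone partner of Bcl-2, fell by 0.91 in MRC+L (adjusted p = 0.0129) and by 0.69 in MRC (adjusted p = 0.049). The MRC calls of Ywhae and Bag1 lay at the threshold and were each made in 2 of 9 fits that left out a library. Bag1 fell by 0.50 in MRC+L and by 0.29 in MRC without PBS replicate 2.

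Bcl2l1 had the largest fold change of the family in MRC+L against PBS with all 9 libraries (-1.43, against -1.25 for Bcl2). Without PBS replicate 2 it was -1.39, against -1.46 for Bcl2, and with the length trend removed -1.39, against -1.42. For Bcl2l1, genes with the most similar profile over the 9 libraries were sought among 11629 genes. The measure was the root mean square difference of log2 levels after centring each gene. Bbs10 (0.106), Nusap1 (0.107), Sdc4 (0.107), Casp6 (0.108), described above, and Arl4c (0.114) came closest, against a median of 0.637 over all genes compared.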

How the data were processed

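Per the labels' protocols, Trizol extracts of 4T1 cells were made into libraries with a TruSeq kit of Illumina. The deposited values are raw counts of read pairs per gene, which the authors made with featureCounts 2.0.1 on GRCm39 with Ensembl 104 genes, per the file headers. The command in the headers sets no strand, so reads of overlapping antisense genes cannot be told apart. The aligner is not given in the sources used here. Symbols from GENCODE M21 (GRCm38) were matched by gene ID to 52083 of 55416 genes (94%). Where 2 IDs shared a symbol, as for Ddit3, the lowest ID was used.

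Genes were kept with edgeR's filter (minimum count 10, minimum total 15) and tested with edgeR 4.0.16 in R 4.3.3 (quasi-likelihood, TMM factors, 1 mean per group, prior count 0.125). All 9 libraries entered the comparisons with PBS, and the 6 libraries of MRC and MRC+L entered theirs. A gene was called when its p, adjusted after Benjamini and Hochberg over all genes kept, was under 0.05. CPM were TMM-scaled. Code was tested on simulated data. Alternatives were DESeq2 1.42.0, other size factors, no filter, other libraries in the fit, a replicate block, a length trend (lowess span 0.3) and leaving out each library. Floors use 3 counts over the unscaled total and cover counting error only. Limma 3.58.1, Python 3.11.15, pandas 2.3.3 and matplotlib 3.10.9 were also used.

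The members, the lists and the marker lists were chosen with earlier results of these data known, so they are descriptions and not independent support. All 10 members are named, and of each list up to 4 genes with the smallest adjusted p against PBS, except 1 gene that is not reported here; genes called with light in a list of few calls, and those said to be so, were named after their values were seen. Replicate pairs of each group differed by more than counting noise (chi-square per degree of freedom 3.83 to 157).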

Additional observations from a re-analysis of the deposited data

How the results depend on the processing

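The direction of each tested member in the comparisons with PBS held under the alternatives run, which does not extend to the ratios or the other lists, and other size factors or no filter changed no count of members called (7, 6 and 1 for MRC+L against PBS, MRC against PBS and MRC+L against MRC). In MRC+L against MRC, the fit to all 9 libraries called 0 members and 0 of 13439 genes, against 654 of 12955 in 6 libraries. DESeq2 called 7, 7 and 1 members, and 6740, 5718 and 702 of all genes. With the length trend removed, members called higher were 2 and 2 against PBS, and they were 2 and 2 without PBS replicate 2, against 0 and 0 with all 9 libraries. All genes called in MRC+L and MRC against PBS were 6960 and 6083 with the trend removed. They were 7659 and 6962 without PBS replicate 2, and 6212 and 5050 with all 9 libraries. Members called over omissions of single libraries were 6 to 9 in MRC+L against PBS, 4 to 9 in MRC against PBS and 1 to 1 in MRC+L against MRC. Over the same omissions, all genes called were 4702 to 7659 in MRC+L against PBS and 3562 to 6962 in MRC against PBS. All genes called with light over omissions were 137 without MRC+L replicate 2 to 1015 without MRC replicate 2, with 193 without MRC replicate 3, 382 without MRC+L replicate 1 and 297 without MRC+L replicate 3. Small differences with light changed sign, and the cause was not tested: with the length trend removed Bax had 0.0602 and Bcl2l11 -0.0326, and over omissions Bax had -0.125 to 0.0384, Bid -0.0222 to 0.0425, Bad -0.219 to 0.0172 and Bcl2l11 -0.0446 to 0.0789.

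The replicate block, with the replicate number as an added factor, gave 7, 6 and 1 members called, as without it, and 5490, 4283 and 720 of all genes, against 6212, 5050 and 654. Deviations of same-numbered libraries correlated at -0.185 to 0.0385, so the numbers are not taken to pair samples.

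With 3 libraries a group, the PBS spread and 1 library apart limit what the comparisons with PBS can show, and low counts limit Bcl2l15.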
